A study of Mus musculus with 12 samples.

Results

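The set described here holds 446 chromatin regions of mouse hepatocytes that were listed as accessible in every animal on a standard diet and in at most 1 of 6 animals on a DDC diet. The assay was ATAC-seq, which reads out open DNA through the sites where a transposase can place sequencing adapters, and the deposited result is 1 list of peaks per library. From each list the same number of peaks with the highest fold enrichment (peak height over the background that the peak caller estimated in the same library) was kept, namely the length of the shortest list, 137004, less 4. Then peaks of all 12 libraries that shared at least 1 bp were merged into 292576 regions. Members are the merged regions held by all 6 standard-diet lists and by 0 or 1 of the 6 DDC lists. They make up 0.152% of all merged regions and 0.660% of the 67548 regions held by all 6 standard-diet lists, of which 61659 were held by all 12 lists. The reverse criterion, all 6 DDC lists and at most 1 standard-diet list, found 2240 regions. Because fold enrichment on both diets chose the members, their difference between diets is given below as a description and carries no test.

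Each of the 12 libraries came from hepatocytes of 1 mouse, obtained by perfusing the liver with collagenase, which does not remove every other cell type. The Fbxl5-deleted mice carried floxed Fbxl5 alleles (FBXL5F/F) together with Alb-Cre, in which the albumin promoter limits Cre to hepatocytes and other cells of that lineage. The control mice carried the same floxed alleles without Cre, so neither genotype is an unmodified strain. Mice of each genotype received a diet with 0.1% DDC (3,5-diethoxycarbonyl-1,4-dihydrocollidine) or a standard diet for 2 weeks, which gave 4 groups of 3 mice. The labels name no strain, sex or age.

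Most accessible regions away from gene starts are candidate enhancers or other regulatory elements, where bound factors keep nucleosomes displaced, and such elements vary more between cell states than promoters do. When cytochromes act on DDC, a modified porphyrin forms that blocks ferrochelatase, so that porphyrin builds up and cholestasis and a ductular reaction follow. FBXL5 senses iron and, when iron is ample, marks IRP2, a regulator of iron genes, for degradation.

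Gene starts were rare among the members. Only 7 of the 446 regions overlapped a promoter window (250 bases before to 50 bases after an annotated start, RefSeq, GRCm38.p6, which is the assembly of mm10), and these windows belonged to 7 genes. Shown here are the window that was covered whole at a liver transporter, Slco1a1; the whole-covered window of a major urinary protein gene, Mup14; and the partly covered windows of Nek8 and Egfl7, which are rich in CpG. Each is written 5′ to 3′ on the strand of its gene, with 250 bases before the start, and capitals mark matches on either strand to the motifs named after the sequences.
Slco1a1, chr6:141946913-141947212, minus strand: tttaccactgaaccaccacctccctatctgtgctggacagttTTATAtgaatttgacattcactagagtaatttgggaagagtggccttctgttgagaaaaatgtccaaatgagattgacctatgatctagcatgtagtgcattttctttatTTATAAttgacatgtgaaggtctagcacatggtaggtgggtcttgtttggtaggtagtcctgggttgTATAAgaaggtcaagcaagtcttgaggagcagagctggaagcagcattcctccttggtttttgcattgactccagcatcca
Mup14, chr4:61303949-61304248, minus strand: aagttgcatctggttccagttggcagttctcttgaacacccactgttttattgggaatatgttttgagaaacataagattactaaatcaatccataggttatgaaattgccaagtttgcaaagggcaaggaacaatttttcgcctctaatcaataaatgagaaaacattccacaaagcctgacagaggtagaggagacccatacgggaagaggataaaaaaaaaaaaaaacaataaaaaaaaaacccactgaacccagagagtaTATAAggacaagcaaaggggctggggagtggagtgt
Nek8, chr11:78176617-78176916, minus strand: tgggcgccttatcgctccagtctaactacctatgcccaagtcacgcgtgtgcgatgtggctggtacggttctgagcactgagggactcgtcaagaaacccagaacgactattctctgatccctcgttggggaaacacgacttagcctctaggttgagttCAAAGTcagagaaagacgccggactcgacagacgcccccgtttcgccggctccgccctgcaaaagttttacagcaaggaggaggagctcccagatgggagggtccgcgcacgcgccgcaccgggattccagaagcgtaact
Egfl7, chr2:26586386-26586685, plus strand: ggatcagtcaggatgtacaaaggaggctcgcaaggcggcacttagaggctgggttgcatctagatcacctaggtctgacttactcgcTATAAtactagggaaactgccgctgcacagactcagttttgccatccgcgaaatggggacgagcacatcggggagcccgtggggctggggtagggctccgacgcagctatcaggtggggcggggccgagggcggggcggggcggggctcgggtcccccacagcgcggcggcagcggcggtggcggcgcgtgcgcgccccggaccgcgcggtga
The motifs searched were TTCNNNGAA (STAT5), TGTTTAC (FOXA), GTTAAT (HNF1), CAAAGT (HNF4), TTGCNNAA (C/EBP), TGANTCA (AP-1) and TATAA (TATA box); the last was added after the sequences had been read. Of 32619 promoter windows in the table, 8.34% held TTCNNNGAA, 3.67% TGTTTAC, 7.10% GTTAAT, 14.4% CAAAGT, 10.9% TTGCNNAA, 7.85% TGANTCA and 24.98% TATAA.

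The Slco1a1 window held TATAA on the gene's strand 31 bases before the start, and 3 further matches lay 208, 98 and 97 bases before it, the last 2 overlapping each other on opposite strands. Its GC content was 42% with no CpG, against a median of 53% and 7 CpG over all windows. In the Mup14 window, with 38.3% GC and 2 CpG, TATAA lay at base 265, past the annotated start. Mup genes are near-identical copies, so reads could have been split among them and the Mup14 region is uncertain. The Nek8 window held CAAAGT 91 bases before the start with 25 CpG and 57.7% GC, and the Egfl7 window had 31 CpG and 67.3% GC with TATAA 163 bases before the start. These matches are letters in a window and not measured binding.

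Most members still had a peak in at least 1 DDC library, though each single DDC library listed only 36.5% to 51.8% of them. In the complete deposited lists, before the restriction to the strongest peaks, 40 members had no peak in any DDC library, 85 had one in 1, 108 in 2, 93 in 3, 50 in 4, 46 in 5 and 24 in all 6. Thus 406 of 446 members were still listed in at least 1 DDC animal, and 213 in at least 3. The same counts over other regions were not taken. The complete DDC lists held a peak at 181, 231 and 170 members in the 3 Fbxl5-deleted mice and at 163, 200 and 209 members in the 3 floxed controls. Among the kept peaks the same libraries held 63, 66 and 56 members in Fbxl5-deleted mice and 22, 32 and 49 in floxed controls. Every standard-diet library held all 446, which the rule required.

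**Figure D1:**
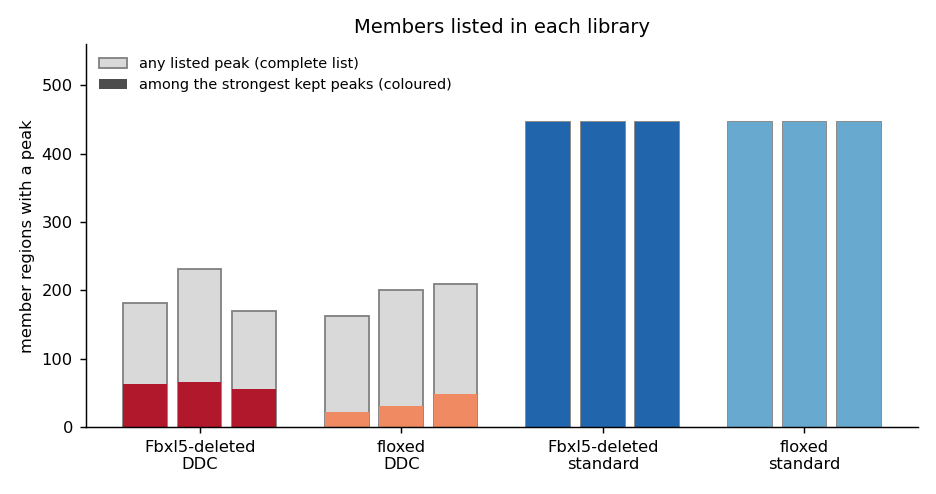
Number of member regions with a peak in each of the 12 libraries (vertical axis, count of regions), by genotype and diet; each bar is 1 mouse, the coloured part counts kept peaks and the grey outline all deposited peaks. The 6 DDC libraries held 22 to 66 members among kept peaks and 163 to 231 in the complete lists, and the 6 standard-diet libraries held all 446 by definition.

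Members were weak peaks on both diets. Their median fold enrichment in the complete lists was 2.41, 2.51 and 2.46 in the Fbxl5-deleted DDC libraries and 2.42, 2.49 and 2.38 in the floxed DDC libraries, over the members listed there. On the standard diet it was 3.09, 3.71 and 3.29 in the Fbxl5-deleted libraries and 3.59, 3.70 and 3.73 in the floxed libraries. Regions held by all 6 standard-diet lists had medians of 6.11 to 8.42 in those same standard-diet libraries. Within a standard-diet list the median member stood at the 32.7th to 40.3rd percentile of fold enrichment, whereas those regions stood at the 70.4th to 71.9th. The caller's q was at most 0.05 in all 6 standard-diet lists for 200 of 446 members, against 90.4% of the regions held by all 12 lists. In single libraries q was at most 0.05 for 288 and 334 members in Fbxl5-deleted standard-diet libraries 1 and 3. In the other standard-diet libraries the number ran from 401 to 414.

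**Figure D2:**
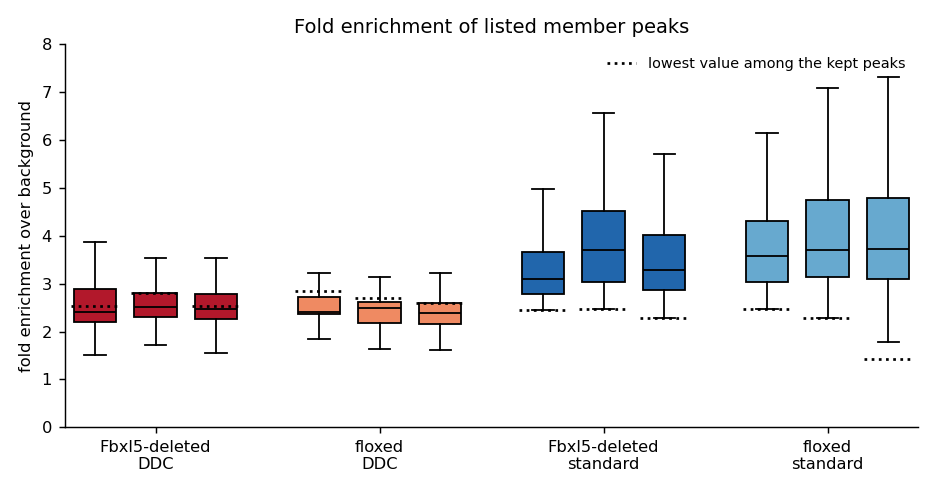
Fold enrichment over background of the member peaks listed in each library (boxes, quartiles and median; whiskers, up to 1.5 times the interquartile range, with points beyond them not drawn), by genotype and diet, from the complete lists; the dotted line is the lowest fold enrichment among kept peaks. Medians were 2.38 to 2.51 in DDC libraries and 3.09 to 3.73 in standard-diet libraries, and the lowest kept value was 2.54 to 2.84 on DDC and 1.43 to 2.47 on the standard diet.

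For the 406 members with a DDC peak, the mean fold enrichment on DDC was taken over the libraries that listed one. It was a median 0.703 times the standard-diet mean over all 6 libraries (quartiles 0.598 and 0.798). DDC libraries without a listed peak were left out, and 85 of these members rested on 1 DDC library and 108 on 2. Regions held by all 12 lists, with every library in both means, had a median ratio of 1.07. In 148 members the highest listed DDC value lay below the lowest standard-diet value, as it did in 1.27% of the 67548 regions held by all 6 standard-diet lists. In 258 members the ranges overlapped, and the other 40 had no DDC value. The rule chose the members on these values, so this count too is a description. A limma fit, on fold enrichments mapped by rank to a common log2 scale, over all regions in at least 3 of the 12 lists called 81 members lower on DDC in Fbxl5-deleted mice, where 0.782% of 138502 regions were called lower, and 139 in floxed controls, where 2.13% were (Benjamini-Hochberg adjusted p under 0.05). The members were selected on this contrast, so these counts support nothing. The median difference, DDC minus standard, was −0.63 log2 in Fbxl5-deleted mice and −0.62 log2 in floxed controls. Members took the lowest value, log2 1.27, in every DDC library whose kept list lacked them. The rule thus largely set both medians, and their likeness between genotypes is no result.

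Depth could be read only from the lists themselves, which hold no read counts. The most frequent fold enrichments were spaced by a step of 0.431 to 0.492 in DDC libraries and 0.499 to 0.611 in standard-diet libraries. Whole multiples of that step, within 0.01 of a step, covered 39.2% to 51.3% of peaks in DDC libraries and 33.7% to 65.2% in standard-diet libraries, and the rest lay between them, so the step is only a rough unit of depth. Counted in these steps, the median listed member stood at 5.00 to 5.68 steps on DDC and 5.06 to 7.42 on the standard diet, and the weakest kept peak at 5.16 to 6.16 steps on DDC and 2.69 to 4.95 on the standard diet. The members' drop out of the kept lists thus came with a higher bar on DDC, and how much of it that bar accounts for was not tested. Libraries 1 and 3 of the Fbxl5-deleted standard-diet group stood apart with 261938 and 260515 listed peaks, against 137004 to 202874 in the other 10. Their weakest kept peaks sat at 4.00 steps in both, inside a large group of tied values. Without library 1 of that group the same rule found 870 regions, without library 3 it found 699, and without both 1643. Fewer lists then had to hold a region, which is also so when another standard-diet library is left out. Leaving out 1 of those others gave 527 to 592 regions, and the cause of the difference was not tested.

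The hepatocyte label was set against start sites of marker genes, and the result was mixed. Within 500 bp of an annotated start, the hepatocyte genes Alb (fold enrichment 4.97 to 10.3) and Hnf4a (10.3 to 14.2) had a kept peak in all 12 libraries, and Apoa1 had one in 11, at up to 3.35. The cholangiocyte gene Epcam (9.17 to 14.8) and the stellate cell gene Lrat (5.15 to 17.5) also had one in all 12, reaching above Alb. None was found at Stab2, of sinusoidal endothelium, or Cd3e, of T cells. Ttr, Krt19, Csf1r, Adgre1, Pecam1 and Pdgfrb were not assessed, as no start site of theirs was used. Ptprc, the leukocyte antigen CD45, had one in 3 of 6 DDC libraries and 0 of 6 standard-diet libraries. Fewer hepatocytes in a preparation and less accessibility per hepatocyte cannot be told apart in bulk libraries, and the part of other cells in the members' values was not tested.

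Each member was assigned to the shortest protein-coding gene it overlapped, or otherwise to the nearest within 50 kb. This gave 382 members a gene, 369 genes in all. In 18 lists of liver pathways and cell types, with 394 genes together, 27 members fell into 12 lists. Lists for Wnt signalling and the pericentral zone, iron handling, cholangiocytes, macrophages, stellate cells and lymphocytes held none. Of their regions, 121, 180, 73, 23, 34 and 57, in that order, were open in all 6 standard-diet libraries, and at the members' overall share of 0.660% of such regions a count of 0 in lists of this size is no result. Values below are fold enrichments from the complete lists, and a missing value means that no peak was listed; coordinates are those of mm10.

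Bile acid transport had 1 member among 152 regions open in all 6 standard-diet libraries, at the promoter of Slco1a1, the sinusoidal organic anion transporter Oatp1a1, which takes up bile acids and steroid conjugates. The region (chr6:141946743-141947373) spanned the start site shown above. No Fbxl5-deleted DDC library had a peak there, and among floxed DDC libraries the values were 1.93 and 3.02, with none in library 2. Mice on the standard diet gave 3.67, 3.52 and 5.71 with Fbxl5 deleted and 4.10, 3.26 and 4.72 with floxed alleles. All 6 standard-diet values therefore lay above both DDC values, and it was the only promoter window of a bile acid transporter in the set. Of the 4 Slco1a1 regions open in all 6 standard-diet libraries, 2 were held by all 12 lists.

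Bile acid synthesis had 3 members among 94 such regions. The region nearest to Cyp7b1, the oxysterol 7α-hydroxylase of the alternative pathway, lay 10351 bp from the gene (chr3:18254241-18254663). It had 1.93 and 4.04 in Fbxl5-deleted DDC libraries 1 and 2, and 2.16 in floxed DDC library 3. In standard-diet libraries it had 2.99, 7.38 and 5.06 in Fbxl5-deleted mice and 5.01, 3.85 and 5.57 in floxed controls. The diets overlapped there through Fbxl5-deleted DDC library 2, and 10 of the 11 Cyp7b1 regions were held by all 12 lists. The members inside Cyp27a1, the sterol 27-hydroxylase that opens the same pathway, and Scp2, the sterol carrier protein with a thiolase form for side-chain shortening, also overlapped between diets, with highest DDC values of 3.25 and 2.94.

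Heme and porphyrin genes had 2 members among 48 regions. The one inside Abcb10, a mitochondrial inner-membrane transporter linked to heme synthesis in erythroid cells, had no peak in any complete DDC list (chr8:123976355-123976648). Its standard-diet values were 3.12, 3.42 and 4.00 in Fbxl5-deleted mice and 3.64, 2.95 and 1.84 in floxed controls. The one inside Alad, the enzyme that makes porphobilinogen, was listed in 1 DDC library at 2.76 and lay between 2.42 and 4.45 on the standard diet. Of the regions open in all 6 standard-diet libraries, 3 of 4 at Abcb10 and 4 of 6 at Alad were held by all 12 lists.

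Complement, coagulation and serpin genes had 4 members among 162 regions. C3, the central complement component, held 2 of them, both inside the gene. The stronger (chr17:57203745-57204177) had 2.42 and 2.53 in Fbxl5-deleted DDC libraries 1 and 2 with none in library 3, and 1.86, 2.08 and 2.05 in floxed DDC libraries. Standard-diet values were 4.11, 7.03 and 4.12 in Fbxl5-deleted mice and 4.81, 5.63 and 4.71 in floxed controls. No DDC value reached the lowest standard-diet value, also at the weaker C3 region, and only 1 of the 5 C3 regions was held by all 12 lists. The region inside C6, which encodes a part of the membrane attack complex (chr15:4794109-4794599), had 2.34 in Fbxl5-deleted DDC library 2 and no other DDC peak. Its standard-diet values were 3.67, 3.00 and 3.43 in Fbxl5-deleted mice and 5.90, 6.41 and 7.25 in floxed controls. The genotypes did not overlap there on the standard diet, as at other members, and the difference did not pass the test given below. The member at F10, coagulation factor X, was listed in all 6 DDC libraries, at 1.68 to 2.79.

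Genes of growth hormone signalling and hepatocyte identity had 3 members. Inside Stat5a, a transcription factor activated by growth hormone (chr11:100879562-100879872), values were 1.78 and 2.78 in Fbxl5-deleted DDC libraries 1 and 3 and 2.16 in floxed DDC library 3. On the standard diet they were 2.83, 5.07 and 4.66 in Fbxl5-deleted mice and 5.77, 6.50 and 3.82 in floxed controls. The highest DDC value fell just short of the lowest standard-diet value. A region 1403 bp from Cebpa, which encodes the hepatocyte factor C/EBPα, was listed in 5 DDC libraries at 1.90 to 2.82. The region 36751 bp from Cps1, the first enzyme of the urea cycle, was listed in 1 DDC library at 2.59. At both genes 11 regions, of 12 at Cebpa and 15 at Cps1, were held by all 12 lists.

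**Figure D3:**
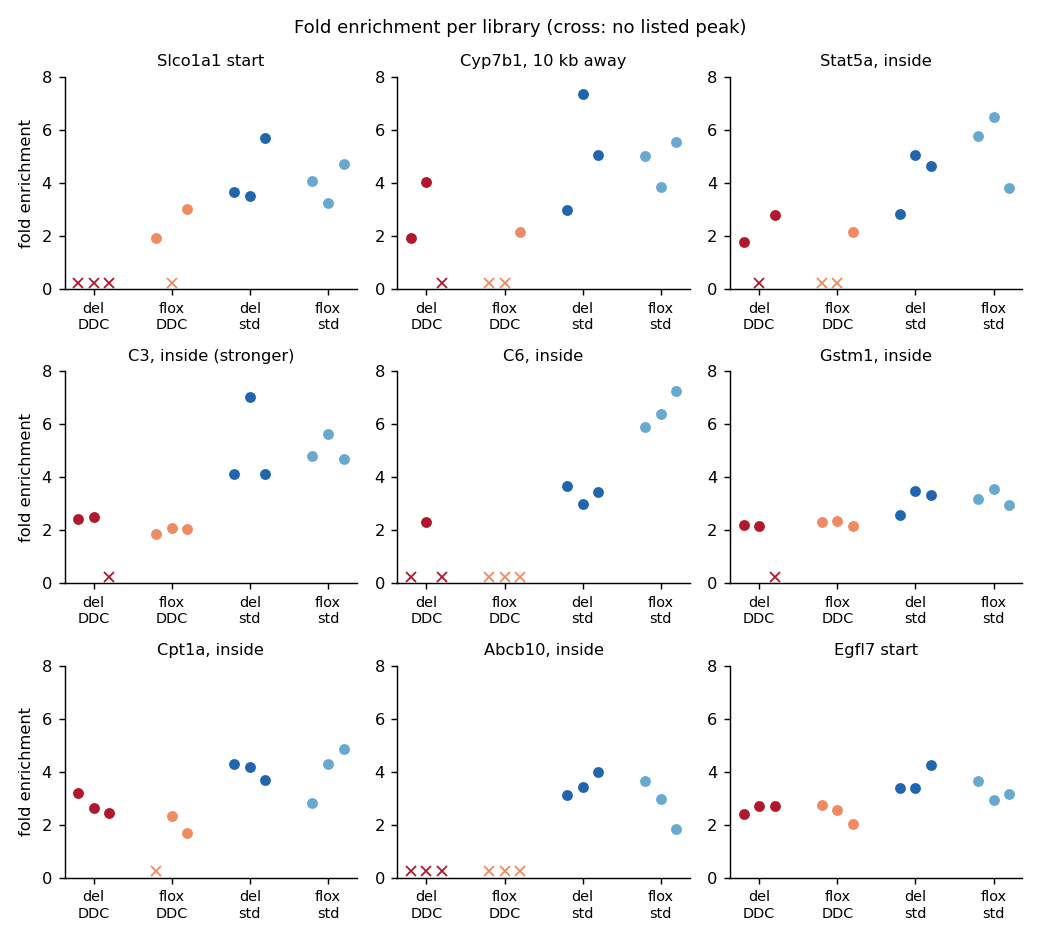
Fold enrichment over background in each library for 9 member regions, with Fbxl5-deleted (del) and floxed (flox) mice on DDC left and on the standard diet (std) right; each point is 1 mouse and a cross marks a library with no listed peak. The Abcb10 region had no DDC peak, the Slco1a1, Stat5a, C3, C6, Gstm1 and Egfl7 regions had every DDC value below every standard-diet value, and the Cyp7b1 and Cpt1a regions overlapped between diets.

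Antioxidant genes had 4 members among 136 regions. Nfe2l2, which encodes the factor NRF2, held 2 of them, 1 listed in a single DDC library at 1.72 and the other in 5 at 2.17 to 3.32. The region inside Gstm1, a glutathione transferase (chr3:108013240-108013811), had 2.22 and 2.19 in Fbxl5-deleted DDC libraries 1 and 2, and 2.33, 2.36 and 2.18 in floxed DDC libraries. In standard-diet libraries it had 2.60, 3.48 and 3.33 in Fbxl5-deleted mice and 3.17, 3.58 and 2.97 in floxed controls. This was a region of small spread on each diet and a small gap between them. A region 25997 bp from Cat, the catalase gene, ranged from 1.95 to 4.22 in 4 DDC libraries and from 4.03 to 7.27 on the standard diet.

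Lipid genes had 5 members among 292 regions, the most of any list in number. The region inside Cpt1a, which controls entry of fatty acids into mitochondria (chr19:3335911-3336437), had 3.21, 2.64 and 2.43 in Fbxl5-deleted DDC libraries, and 2.32 and 1.68 in floxed DDC libraries 2 and 3. Standard-diet values were 4.30, 4.17 and 3.69 in Fbxl5-deleted mice and 2.81, 4.29 and 4.85 in floxed controls. The other members lay in or near Mttp, needed for lipoprotein assembly, Cd36, a fatty acid receptor, and Insig1 and Insig2, which hold the sterol-sensing complex in the endoplasmic reticulum. In all 5 the diets overlapped. Outside these lists, the region inside Srebf2, the master regulator of cholesterol synthesis, was among the 10 strongest members and spread widely on the standard diet, at 4.28, 5.99 and 6.87 in Fbxl5-deleted mice and 7.17, 13.9955 and 2.66 in floxed controls. It was still listed in 5 DDC libraries at 2.16 to 3.37.

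Clock genes had 2 members among 163 regions. The member inside Per1, a repressor of the circadian loop, was listed in 1 DDC library at 2.40 and ranged from 2.62 to 3.35 on the standard diet. That inside Per2, its partner, was listed in all 6 DDC libraries at 2.12 to 2.99. Pygl, the liver glycogen phosphorylase, and Cyp3a13, a drug-metabolising cytochrome, had 1 member each, listed in 3 DDC libraries. The single member from a list of another cell type was at an internal start site of Egfl7, a secreted endothelial protein (chr2:26586483-26587331). It had 2.40, 2.70 and 2.69 in Fbxl5-deleted DDC libraries and 2.76, 2.57 and 2.03 in floxed DDC libraries. Mice on the standard diet gave 3.38, 3.37 and 4.26 with Fbxl5 deleted and 3.66, 2.94 and 3.16 with floxed alleles. Every library thus listed the Egfl7 region, and the lowest standard-diet value exceeded the highest DDC value by a small margin.

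The Mup14 and Nek8 windows shown above also held weak peaks. The Mup14 region had 1.74 and 3.20 in Fbxl5-deleted DDC libraries 1 and 2 and 1.93 in floxed DDC library 1, against 2.50 to 3.76 on the standard diet. The region at the Nek8 start, a kinase gene of cilia whose start lies next to Tlcd1, was listed in all 12 libraries, at 2.04 to 2.70 on DDC and 2.41 to 3.35 on the standard diet. In both regions the diets overlapped.

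Of the 10 members with the highest standard-diet enrichment, 4 had no protein-coding gene within 50 kb, and others lay inside long genes such as Lrp1b, a receptor of the LDL receptor family, Dpp10, which encodes a peptidase-like channel subunit, and Ptprd, a receptor tyrosine phosphatase. The Lrp1b region (chr2:40851547-40851990) had no peak in Fbxl5-deleted DDC libraries, and 3.94 and 2.16 in floxed DDC libraries 2 and 3. On the standard diet it had 3.06, 6.99 and 5.72 in Fbxl5-deleted mice and 8.71, 10.0 and 12.3 in floxed controls. It was the only Lrp1b region open in all 6 standard-diet libraries. The Zfp618 region, inside a zinc finger gene, had a single DDC peak, 3.37 in Fbxl5-deleted library 1, and 2.86 to 11.98 on the standard diet.

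Among the 40 members with no DDC peak at all, the strongest lay inside Dpp10 (chr1:124068717-124069156). It had 4.28, 7.99 and 4.01 in Fbxl5-deleted standard-diet mice and 8.20, 10.0 and 7.99 in floxed standard-diet mice. The next, at chr2:122887221-122887849 with no protein-coding gene within 50 kb, had 5.50, 6.49 and 6.29 in Fbxl5-deleted mice and 5.63, 7.91 and 7.46 in floxed controls. Its 6 values were the closest to one another, by the ratio of highest to lowest, of the strongest 10 of this kind. The others of those 10 lay inside Nostrin, whose product controls traffic of endothelial nitric oxide synthase, Anks1b, Adgb, Dmgdh, a mitochondrial enzyme of choline breakdown, Galnt2, which starts O-linked glycosylation, and Ptprd, near Plcxd3, and at chr11:111996918-111997384 away from genes. The Dmgdh region (chr13:93719637-93720034) had 2.99, 5.90 and 5.01 in Fbxl5-deleted mice and 3.96, 5.53 and 4.26 in floxed controls. A peak weaker than the caller's p threshold of 0.05 would not be listed.

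Members lay near other members about as often as regions open in all 6 standard-diet libraries did. Within 50 kb, 21 members (4.71%) had another member, against 4.60% of those regions. Of 369 genes, 12 held more than 1 member. Blm, a DNA helicase gene, held 3 members, and 2 each lay at C3, Nfe2l2, Ptprd, Mapkapk2, a stress kinase, Fam47e, St3gal5, which makes the ganglioside GM3, Tmcc1, Pik3c2g, a lipid kinase, Cmah, which makes N-glycolylneuraminic acid, Sil1 and Lipg, the endothelial lipase. The strongest Blm region (chr7:80447784-80448298) had 2.44 and 2.11 in Fbxl5-deleted DDC libraries 2 and 3 and 2.46 in floxed DDC library 2. Standard-diet values were 5.67, 4.44 and 3.08 in Fbxl5-deleted mice and 2.88, 4.60 and 3.99 in floxed controls. Other regions at these genes were held on both diets. Of regions open in all 6 standard-diet libraries, Blm had 8 of 11 in all 12 lists, St3gal5 16 of 22, Pik3c2g 15 of 20 and Ptprd 24 of 30.

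The width and position of members were set beside those of other regions. Their median width was 412 bp, against 683 bp for regions in all 6 standard-diet lists and 411 bp for the 2240 regions of the reverse criterion. Of the 432 members outside chromosome 18, where no start sites were used, 6 overlapped a start (1.39%) and 27 lay within 1 kb (6.25%), against 15.9% and 19.8% of regions in all 6 standard-diet lists. The corresponding share within 1 kb was 8.38% of all merged regions and 4.58% of the reverse set. Members inside a protein-coding gene numbered 262 (58.7%), against 63.6% of regions in all 6 standard-diet lists. The median distance to a start was 20283.5 bp for members and 14490 bp for those regions. The start-site table does not cover every gene, so these distances are upper limits. The sets were not matched for peak strength or width, and these shares are descriptions. A region held by all 12 lists lay within 5 kb of 54.9% of members, and a region of the reverse set within 50 kb of 10.5%. For regions in all 6 standard-diet lists these shares were 41.9% and 15.3%.

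**Figure D4:**
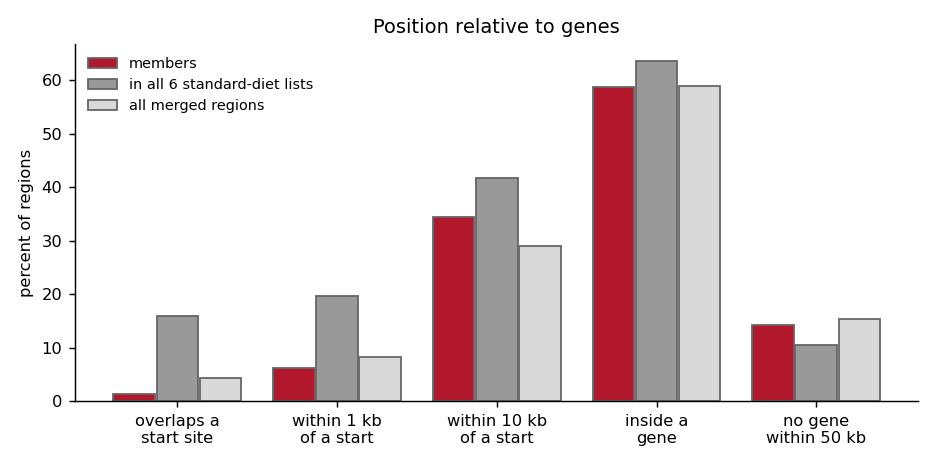
Share of regions (percent) that overlapped an annotated start, lay within 1 kb or 10 kb of one, lay inside a protein-coding gene or had none within 50 kb, for members, for regions in all 6 standard-diet lists and for all merged regions. Members overlapped a start in 1.39% of cases, against 15.9% and 4.46%, and lay inside a gene in 58.7%, against 63.6% and 58.9%.

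The summit positions of the 6 standard-diet libraries spanned a median of 95.5 bp at members and 52 bp at regions in all 6 standard-diet lists. No member overlapped a miRNA hairpin of the RefSeq table. Chromosome 1 held the most members, 43, which is 0.882% of its regions in all 6 standard-diet lists. The X chromosome held 5, or 0.402%, and the share over all chromosomes was 0.660%. Tied peaks were kept in order of position, from chromosome 1 to X, and the part of that order in these shares was not tested.

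The rule did not contrast the genotypes, but it was not free of the standard-diet values either. It required a kept peak in all 6 standard-diet lists, which removes regions with large genotype differences, and it acted more through Fbxl5-deleted library 1 than through any floxed library (870 regions without it, against 527 to 592 without a floxed one). The genotype difference is therefore given with that limit. The design asks how accessibility differed between the genotypes. Of 105961 regions held by at least 3 of the 6 lists, 1 passed (limma, Benjamini-Hochberg adjusted p under 0.05), which is 0.000944%, and it was not a member. None of the 446 members passed, with a lowest adjusted p of 0.512 in the same limma fit, and 14 had an unadjusted p under 0.05 (3.14%). That share was 6.37% for regions in all 6 standard-diet lists and 6.91% for all regions tested. With all 12 libraries in the fit, 53 members had an unadjusted p under 0.05, and again none passed. In that fit the rule gave members the lowest value in most DDC libraries, which can narrow their estimated spread. The count of 53 is therefore no result about genotype. Its share over all regions was not taken, and the cause of the higher count was not tested. The median difference, Fbxl5-deleted minus floxed, was 0.03 log2 over members, 0.04 over regions in all 6 standard-diet lists and 0.00 over all tested regions. From the 5th to the 95th percentile members ran from −0.50 to 0.51, with a median standard error of 0.31, and 242 of 446 were higher in Fbxl5-deleted mice (54.3%). The same share was 56.2% of regions in all 6 standard-diet lists and 50.7% of all tested. In simulated data with the same libraries the fit called 10 of 100 regions changed by 1 log2 and 57 of 100 changed by 2 log2. Differences of this size at single members could therefore have gone uncalled with 3 mice per genotype.

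**Figure D5:**
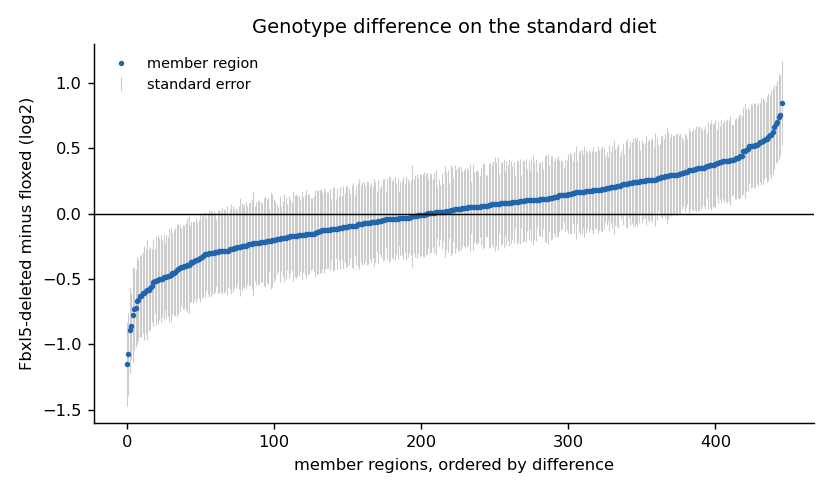
Difference in rank-based log2 fold enrichment, Fbxl5-deleted minus floxed mice on the standard diet (vertical axis), for each of the 446 members ordered by size; points are estimates from 3 against 3 libraries and grey lines their standard errors. Estimates ran from −1.15 to 0.84 with a median of 0.03, and no member passed the test.

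The largest differences, none of which passed, were these. A region inside Galnt11, a glycosyltransferase gene, had 5.33, 4.58 and 4.00 in Fbxl5-deleted mice and 2.55, 3.16 and 3.20 in floxed controls on the standard diet (0.84 ± 0.32 log2, SE, limma adjusted p = 0.648). Snw1, a splicing and transcription cofactor, had a region at 3.71, 4.25 and 4.20 in Fbxl5-deleted mice and 3.29, 2.37 and 2.37 in floxed controls (0.75 ± 0.31, limma adjusted p = 0.666). The Per2 region had 4.62, 3.08 and 4.45 in Fbxl5-deleted mice and 2.56, 2.91 and 2.87 in floxed controls (0.74 ± 0.33, limma adjusted p = 0.686). In these 3 the genotypes did not overlap. They were chosen for large differences, and other members with smaller ones, such as the Stau2 region (−0.48 log2), did not overlap either. Non-overlap is therefore no further result, and its share over all regions was not taken. The lowest was a region inside Cdc20b, with 3.06, 4.49 and 2.86 in Fbxl5-deleted mice and 9.73, 12.5 and 4.79 in floxed controls (−1.15 ± 0.32, limma adjusted p = 0.512). A region at chr4:22207846-22208269 followed with 2.45, 4.00 and 4.01 in Fbxl5-deleted mice and 8.71, 5.27 and 11.2 in floxed controls (−1.08 ± 0.31, limma adjusted p = 0.527). The Anks1b region came next at −0.89 ± 0.33, with overlapping genotypes. Of these 3, the Cdc20b region and the one on chromosome 4 had every Fbxl5-deleted value below every floxed value, with the same limit. The C6 region differed by −0.72 ± 0.29 (limma adjusted p = 0.659) and the Lrp1b region by −0.86 ± 0.25 (limma adjusted p = 0.527). The Slco1a1 region differed by 0.26 ± 0.32 and overlapped between genotypes.

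On DDC the members that kept a peak could be compared between genotypes only with longer lists, a choice made after seeing the data, and the rule itself had limited their DDC values. With the strongest 168961 peaks per DDC library, 0 of 131299 regions passed (0%, limma, Benjamini-Hochberg adjusted p under 0.05), with 8837 at an unadjusted p under 0.05. Of the 161 members tested there, 0 passed and 0 had an unadjusted p under 0.05, with a lowest adjusted p of 0.752 from limma. The median difference of these 161 was 0.10 log2, and 106 were higher in Fbxl5-deleted mice (65.8%, against 49.1% of all tested). Because the rule acted on these same DDC values, the share is a description and no result about genotype.

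Of the 288 members held by exactly 1 kept DDC list, 185 were held by an Fbxl5-deleted library and 103 by a floxed library. The Fbxl5-deleted share, 64.2%, stood beside 53.4% of the 65589 regions held by exactly 1 DDC list, whatever their standard-diet lists. In the complete lists the genotypes were nearly level, with 582 member peaks in Fbxl5-deleted and 572 in floxed DDC libraries. The share ran between 49.2% and 76.2% when single libraries were left out. It was 49.2% to 51.4% without any 1 of the Fbxl5-deleted DDC libraries and 69.7% to 76.2% without any 1 of the floxed DDC libraries. Each of these leaves unequal numbers of DDC libraries per genotype, so they cannot be set directly beside 64.2%. When all deposited peaks were kept the share was 54.3%. The lowest kept fold enrichment was 2.54, 2.80 and 2.54 in Fbxl5-deleted DDC libraries and 2.84, 2.70 and 2.59 in floxed DDC libraries. The rule acted on these same lists, and regions are not replicate mice. The share is therefore a description and no result about genotype.

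Regions just outside the criterion had similar values. There were 483 regions with 6 standard-diet and 2 DDC lists, 468 with 5 and 0, and 625 with 5 and 1. Their median mean fold enrichment on the standard diet was 3.68, 3.36 and 3.39 in that order, against 3.55 for the 158 members in 0 DDC lists and 3.69 for the 288 in 1. The edge of the set thus fell within a continuous range of weak peaks.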

How the data were processed

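Per the submitters' processing notes, the tools were MACS2, deepTools, bedtools, Picard, SAMtools, Bowtie2 and fastp and the build mm10; their versions, order and settings, and any read shift, are not given in the labels. The authors deposited 1 peak list per library, so replicates were not pooled. In the deposited lists, fold enrichment (a ratio) is over the library's own background, and the −log10 p, −log10 q and score are the caller's. The smallest deposited −log10 p was 1.30, a p-value of 0.05. The lists hold no read counts.

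Lines with equal coordinates were joined, chromosomes 1 to 19 and X used, ties ordered by −log10 p and position, and peaks merged at 1 bp. Members and gene lists were chosen with earlier results of these data known. For tests, fold enrichments were mapped by rank to a common log2 scale, absent peaks taking the lowest value, log2 1.27, so only changes relative to other regions of a library are seen. limma 3.58.1 (R 4.3.3; lmFit, eBayes with trend and robust) was fitted without covariates, on 6 standard-diet libraries for genotype and on 12 for diet, over regions in at least 3 lists; p-values were two-sided and Benjamini-Hochberg adjusted. The fit was tested on simulated data. Other steps used pandas 2.3.3, numpy 2.4.6, scipy 1.17.1 and matplotlib 3.10.9 in Python 3.11.15. Named are the 10 strongest members, the 10 strongest with no DDC peak, genes with most members, the strongest of each list and the largest genotype differences; start-site regions and the C6 and Lrp1b genotype values were chosen after their values were seen. The tables in use give no exons, and start sites on chromosome 18 were not used here.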

Additional observations from a re-analysis of the deposited data

How the results depend on the processing

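Keeping 100000 peaks gave 527 regions, of which 104 were among the 446 members. Keeping all deposited peaks gave 317 (125 shared), ordering by −log10 p 413 (304 shared) and 50% reciprocal overlap 349 (181 shared). The membership thus depended on these choices more than its size. Leaving out 1 library gave 527 to 870 regions, and without Fbxl5-deleted standard libraries 1 and 3 there were 1643. Members with no DDC peak in the complete lists numbered 40. They were 6 with 100000 peaks, 120 with all peaks, 15 with reciprocal overlap, 48 to 100 with 1 library left out (100 without Fbxl5-deleted standard library 1, 79 without library 3, 63 without Fbxl5-deleted DDC library 2) and 246 without both. No member was called between genotypes on the standard diet under any of 15 alternatives. In the alternatives that keep the regions as they are, 13 to 53 members had an unadjusted p under 0.05. The highest count came with all 12 libraries in the fit, where members have the lowest value in most DDC libraries. That fit also holds more libraries, and the cause of its higher count was not tested. Over all regions the 1 call became 0 with all 12 libraries, with unmapped log2 values, with −log10 p order and without both libraries, 3 with all peaks, 12 with reciprocal overlap, 88 with no filter and 0 to 3 with 1 library left out. The cause was not tested. Diet calls in either direction numbered 4374 in Fbxl5-deleted mice and 9736 in floxed controls, 1825 and 4405 with no filter, and 2040 to 3728 and 4996 to 8162 with 1 library left out.

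Same-numbered libraries of different groups deviated together little, with correlations of −0.04 to 0.09 over 18 pairs (median 0.02). Differently numbered libraries gave −0.06 to 0.04 over 36 pairs (median −0.01). The same-numbered values were slightly higher, and whether the numbers pair the mice is not settled by them. With the replicate number as a block, 1 region and 0 members were called between genotypes, and diet calls were 4114 in Fbxl5-deleted mice and 9383 in floxed controls.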
